A study of Mus musculus with 7 samples.

Results

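The imprinted growth genes H19, Igf2, Igf2r, Plagl1, Dlk1, Meg3, Mest, Peg3 and Grb10 were examined in fetal liver cells of the mouse that had been depleted of mature blood lineages (Lin-). They were taken by symbol from the deposited gene count table, and 1 further listed name, Zac1, is a synonym of Plagl1 in RefSeq. The 10 listed names therefore gave 9 genes of the 35976 symbols in the table, and all 9 passed the filter on low counts.

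The knockout group held 4 libraries from C57BL/6 embryos at stage E14.5 that were CD45.2(+), carried Vav1-iCre and had both Brd9 alleles flanked by loxP sites. The control group held 3 libraries from embryos of the same strain, stage and CD45.2(+) Brd9fl/fl genotype without the recombinase. Vav1-iCre is driven by regulatory sequence of a blood cell gene, so deletion is directed to blood cells and not to hepatocytes. The mothers brought the recombinase in the mating and the fathers did not, and every knockout but no control carried it, so effects of the recombinase and of Brd9 loss cannot be told apart. The labels do not say whether a library came from 1 embryo or a pool, and the p-values reflect variation among libraries whose biological independence is not stated.

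Imprinted genes are transcribed mainly from the chromosome of 1 parent, a mark set in the germline by DNA methylation at imprinting control regions. Igf2, a fetal growth factor, Dlk1, a transmembrane protein of the Notch ligand family, Mest, a hydrolase-like protein, Peg3, a zinc finger protein, and Plagl1, a zinc finger transcription factor, are expressed mainly from the paternal copy in the mouse. H19 and Meg3, both long noncoding RNAs, Igf2r, a receptor that takes IGF2 to lysosomes, and Grb10, an adaptor that dampens insulin and IGF signalling, are expressed mainly from the maternal copy in most mouse tissues. In fetal liver, hepatoblasts are a known rich source of H19, Igf2 and Dlk1, and these liver cells surround the blood progenitors. The libraries do not separate the 2 parental copies, so what follows concerns total transcript only.

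Brd9, a subunit of a BAF-type chromatin remodelling complex that binds acetylated lysine, had 11.5 ± 2.0 CPM in the knockouts (SD, n = 4) and 33.1 ± 3.0 CPM in the controls (SD, n = 3). CPM is a gene's count relative to the TMM-scaled total of its library. Total counts ran from 18748885 to 21861876 in the knockouts and from 21831430 to 23571878 in the controls. Over all 14679 genes tested with edgeR's quasi-likelihood test, 82 were called at a Benjamini-Hochberg adjusted p under 0.05, of which 2 were higher and 80 lower. The sample was not free of transcripts of liver parenchyma, and whether they came from intact cells was not measured. The 22 hepatocyte markers were all detected in every library. They summed to between 14971 and 26916 CPM in the knockouts and between 11993 and 20949 CPM in the controls. The 14 granulocyte and monocyte markers summed to between 1288 and 2746 CPM in the knockouts, below the 4239 to 7474 CPM of the controls.

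H19 lies on the minus strand of chromosome 7 from 142575530 to 142578146 (GRCm38, RefSeq), and Igf2 on the same strand from 142650768 to 142666816. Both host microRNAs, whose mature sequences are printed because they are carried within the 2 most abundant members. The seed, bases 2 to 8, is in capitals, and none of the 4 shares its seed with another mature mouse miRNA in the RefSeq table. The library kit selected polyadenylated RNA, so mature miRNAs were not measured here. The Mir675 row held 0 reads in every library, and the Mir483 row held 9, 10, 12 and 20 reads in knockout replicates 1 to 4 and 15, 7 and 9 reads in control replicates 1 to 3. Mir675 lies within H19 and Mir483 within Igf2, each on the strand of its host. How reads lying on 2 genes were assigned is not known here, so the 0 does not show that no read lay there.
mmu-miR-675-5p: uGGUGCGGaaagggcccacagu
mmu-miR-675-3p: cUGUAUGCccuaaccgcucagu
mmu-miR-483-5p: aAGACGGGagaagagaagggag
mmu-miR-483-3p: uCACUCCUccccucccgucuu

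Promoter windows of Igf2, Dlk1, Meg3, Peg3, Igf2r and Grb10, 6 of the 7 members whose levels moved together across libraries, are shown beside those of the 2 members that did not, Plagl1 and Mest, and of Alb, the albumin gene. For a gene with several starts 1 window is printed. Each is the 250 bases before a RefSeq start (GRCm38.p6), and capitals mark a match to a searched motif on either strand. The motifs were the TATA box TATAAA, found in 12.4% of 32851 such windows of all genes, GGGGCCCC, the core of the site that Plagl1 binds, which reads the same on both strands and was found in 0.889%, and the site of HNF1, a hepatocyte transcription factor, found in 0.0609%. The coordinates are chr7:142657497-142657746 on the minus strand for the most downstream of 4 Igf2 starts, chr12:109452573-109452822 on the plus strand for Dlk1 and chr12:109540746-109540995 on the plus strand for the upstream of 2 Meg3 starts. They are chr7:6730420-6730669 on the minus strand for Peg3, chr17:12769707-12769956 on the minus strand for Igf2r and chr11:12037421-12037670 on the minus strand for the upstream of 2 Grb10 starts. The others are chr6:30737800-30738049 on the plus strand for 1 of 3 Mest starts, chr10:13090582-13090831 on the plus strand for Plagl1 and chr5:90460620-90460869 on the plus strand for Alb.
Igf2: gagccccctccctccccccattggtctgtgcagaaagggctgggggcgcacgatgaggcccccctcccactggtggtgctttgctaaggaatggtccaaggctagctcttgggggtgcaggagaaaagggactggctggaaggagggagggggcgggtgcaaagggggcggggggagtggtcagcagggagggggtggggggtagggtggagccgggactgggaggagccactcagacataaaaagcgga
Dlk1: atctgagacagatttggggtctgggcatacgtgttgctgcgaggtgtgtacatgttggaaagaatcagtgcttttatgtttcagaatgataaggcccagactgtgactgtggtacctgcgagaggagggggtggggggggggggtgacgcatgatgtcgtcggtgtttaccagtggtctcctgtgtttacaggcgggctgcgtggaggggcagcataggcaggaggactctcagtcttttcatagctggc
Meg3: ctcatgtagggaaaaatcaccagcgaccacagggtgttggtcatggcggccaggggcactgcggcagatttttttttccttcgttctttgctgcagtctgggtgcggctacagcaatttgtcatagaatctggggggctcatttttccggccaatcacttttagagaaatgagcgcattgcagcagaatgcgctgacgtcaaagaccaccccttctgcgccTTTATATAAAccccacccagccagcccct
Peg3: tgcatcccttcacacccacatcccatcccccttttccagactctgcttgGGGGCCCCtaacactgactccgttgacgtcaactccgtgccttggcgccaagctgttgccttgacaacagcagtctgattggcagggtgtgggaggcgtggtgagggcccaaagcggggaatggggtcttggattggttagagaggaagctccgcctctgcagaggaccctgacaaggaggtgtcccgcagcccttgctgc
Igf2r: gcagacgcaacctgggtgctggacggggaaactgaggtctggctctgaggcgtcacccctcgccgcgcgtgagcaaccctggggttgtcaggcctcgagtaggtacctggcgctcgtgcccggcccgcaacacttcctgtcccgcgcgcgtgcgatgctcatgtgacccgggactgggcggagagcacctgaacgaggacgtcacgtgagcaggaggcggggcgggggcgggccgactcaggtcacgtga
Grb10: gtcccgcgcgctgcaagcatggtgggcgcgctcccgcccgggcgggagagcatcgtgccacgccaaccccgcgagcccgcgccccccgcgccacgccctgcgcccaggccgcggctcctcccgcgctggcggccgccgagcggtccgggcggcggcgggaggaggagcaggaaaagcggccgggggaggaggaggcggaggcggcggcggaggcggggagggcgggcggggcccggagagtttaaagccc
Mest: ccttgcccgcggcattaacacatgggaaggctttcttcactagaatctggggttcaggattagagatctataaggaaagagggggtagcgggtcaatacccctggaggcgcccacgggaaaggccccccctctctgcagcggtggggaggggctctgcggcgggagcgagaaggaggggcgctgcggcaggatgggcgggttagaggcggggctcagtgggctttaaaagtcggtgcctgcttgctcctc
Plagl1: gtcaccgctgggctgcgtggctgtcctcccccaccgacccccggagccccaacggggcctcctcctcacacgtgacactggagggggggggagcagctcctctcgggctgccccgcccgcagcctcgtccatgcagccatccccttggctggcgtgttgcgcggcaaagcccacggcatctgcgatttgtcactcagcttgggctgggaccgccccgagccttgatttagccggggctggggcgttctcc
Alb: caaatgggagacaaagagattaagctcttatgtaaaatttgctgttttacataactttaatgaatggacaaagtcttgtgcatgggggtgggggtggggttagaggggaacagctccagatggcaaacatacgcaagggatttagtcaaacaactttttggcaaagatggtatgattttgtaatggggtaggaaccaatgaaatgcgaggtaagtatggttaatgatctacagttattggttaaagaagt

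In these letters the Meg3 window held 2 overlapping matches to TATAAA, 1 on each strand, and the Peg3 window held 1 match to GGGGCCCC. The Alb window held 2 CG pairs. The printed windows of Igf2, Dlk1, Meg3, Peg3, Igf2r and Grb10 held 6, 8, 10, 8, 27 and 40 CG pairs, and those of Mest and Plagl1 held 14 and 19, beside a median of 6.0 over all windows. The other starts of Igf2 had 1, 10 and 22 CG pairs, those of Mest 7 and 14, that of Meg3 0 and that of Grb10 8, so the members that moved together lay on both sides of Mest and Plagl1. No window of a member or of Alb held an exact match to the HNF1 motif. That motif was searched as a strict pattern, found in only 20 of 32851 windows, and sites that depart from it were not searched for. The lack of a match therefore does not show that a window, such as that of Alb, has no HNF1 site. A match describes the letters only.

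None of the 9 genes was called in the comparison of knockout with control libraries, where 0.559% of all tested genes were. At an unadjusted p under 0.05 the number was also 0 of 9, against 10.9% of all tested genes, and DESeq2 and limma-voom called 0 as well. The 2 groups overlapped for every member, while 11.2% of all tested genes had no overlap. The log2 fold change was above 0 for 8 members and below 0 for 1, with a median of 0.14 beside 0.01 over all tested genes, but the sign of 6 of the 9 (Igf2, Igf2r, Plagl1, Meg3, Mest and Grb10) turned without at least 1 library. The upper ends of the 95% intervals of the edgeR fit were highest for Peg3, at 0.92 on the log2 scale, and for Dlk1, at 0.91, so differences of up to that size lie within the intervals of these genes. Fewer cells of a type and less RNA per cell cannot be told apart in bulk libraries.

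Of the paternally expressed growth factor and its neighbours, Igf2 had 1303, 1086, 828 and 1685 CPM in knockout replicates 1 to 4 and 1135, 873 and 1391 CPM in control replicates 1 to 3. Knockout replicate 4 was highest and knockout replicate 3 lowest, with every control between them. The means were 1226 ± 363 CPM in the knockouts (SD, n = 4) and 1133 ± 259 CPM in the controls (SD, n = 3), and the log2 fold change was 0.11 (SE 0.23, 95% interval -0.41 to 0.64, edgeR adjusted p = 0.889).

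H19, transcribed from the other parental copy through the same enhancers as Igf2, had 2867, 2342, 2114 and 3576.5 CPM in knockout replicates 1 to 4 and 2324, 1855 and 2848 CPM in control replicates 1 to 3. Here too knockout replicate 4 was highest, and control replicate 2 was lowest. The log2 fold change was 0.22 (SE 0.20, 95% interval -0.23 to 0.67, edgeR adjusted p = 0.733). H19 alone took between 0.207% and 0.363% of all counts in the knockouts and between 0.190% and 0.284% in the controls.

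The ratio of H19 to Igf2, taken within each library so that scaling cancels, was 1.14, 1.11, 1.35 and 1.09 on the log2 CPM scale in knockout replicates 1 to 4 and 1.03, 1.09 and 1.03 in control replicates 1 to 3. Knockout replicate 3 stood apart, and the other knockouts lay at or just above the controls. The mean difference was 0.12 (exact permutation test over 35 splits, two-sided, p = 0.143) and was 0.06 without knockout replicate 3.

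Igf2r, which clears IGF2 from the cell surface, had 254, 170.4, 110.4 and 216 CPM in knockout replicates 1 to 4 and 175, 146 and 191 CPM in control replicates 1 to 3. The knockouts spanned both sides of all controls. The log2 fold change was 0.14 (SE 0.24, 95% interval -0.40 to 0.67, edgeR adjusted p = 0.866). It lies on the minus strand of chromosome 17 from 12682406 to 12769706 and overlaps the antisense transcript Airn, which held between 28 and 46 reads in the knockouts and between 25 and 40 in the controls. The strand setting of the counting is not given in the sources used here, so reads of overlapping genes on opposite strands may have been shared.

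At the other imprinted pair on chromosome 12, Dlk1 (109452485 to 109463336, plus strand) had 586, 389, 314 and 651 CPM in knockout replicates 1 to 4 and 383, 303 and 444 CPM in control replicates 1 to 3. Knockout replicates 1 and 4 lay above all controls and the other 2 within them. Its log2 fold change, the largest among the members, was 0.36 (SE 0.24, 95% interval -0.18 to 0.91, edgeR adjusted p = 0.645). Meg3 (109540996 to 109571729, plus strand) had 456, 428, 289.7 and 756 CPM in knockout replicates 1 to 4 and 438, 343 and 481 CPM in control replicates 1 to 3, a log2 fold change of 0.20 (SE 0.27, 95% interval -0.41 to 0.81, edgeR adjusted p = 0.828). For Meg3 only knockout replicate 4 stood above the controls, and knockout replicate 3 lay below them.

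The ratio of Meg3 to Dlk1 was -0.36, 0.14, -0.11 and 0.22 on the log2 CPM scale in knockout replicates 1 to 4 and 0.19, 0.18 and 0.11 in control replicates 1 to 3. The 3 controls were close to each other and the knockouts were spread on both sides of them. The mean difference was -0.19 (exact permutation test over 35 splits, two-sided, p = 0.343), and -0.08 without knockout replicate 1. Rian, the next maternally expressed noncoding RNA of that cluster and chosen after its values were seen, had 466, 349.5, 213 and 581 CPM in knockout replicates 1 to 4 and 350.05, 289 and 398 CPM in control replicates 1 to 3. Its Pearson correlation with Meg3 over the 7 libraries was 0.95, a description of libraries that share their depth and cell mixture.

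Peg3, on another part of chromosome 7 than Igf2, had 116, 87.6, 53.1 and 149 CPM in knockout replicates 1 to 4 and 89.6, 73.2 and 85.3 CPM in control replicates 1 to 3. The knockouts again lay on both sides of the controls (log2 fold change 0.29, SE 0.28, edgeR adjusted p = 0.750). Grb10 had 392, 312, 249 and 389 CPM in knockout replicates 1 to 4 and 362, 304 and 340.05 CPM in control replicates 1 to 3, with group means of 335.6 and 335.4 CPM. Peg3 lies on the minus strand of chromosome 7 from 6703892 to 6730462 and Grb10 on the minus strand of chromosome 11 from 11930499 to 12037428.

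Mest and Plagl1 are the remaining paternally expressed members. Mest (chromosome 6, 30733506 to 30748466, plus strand) had 26.4, 27.8, 28.7 and 33.9 CPM in knockout replicates 1 to 4 and 18.7, 40.6 and 28.5 CPM in control replicates 1 to 3. Here the controls held both the highest and the lowest library. Plagl1 (chromosome 10, 13090832 to 13131694, plus strand), a regulator of other imprinted genes in the mouse, had 6.55, 5.01, 7.67 and 6.29 CPM in knockout replicates 1 to 4 and 6.27, 6.04 and 6.71 CPM in control replicates 1 to 3. Its log2 fold change was 0.01 (SE 0.18, 95% interval -0.39 to 0.41, edgeR adjusted p = 0.992) and that of Mest was 0.00 (SE 0.22, 95% interval -0.50 to 0.49, edgeR adjusted p = 0.996), with 0.31 for Mest without control replicate 2. Mest overlaps Copg2, which lies on the opposite strand.

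**Figure D1:**
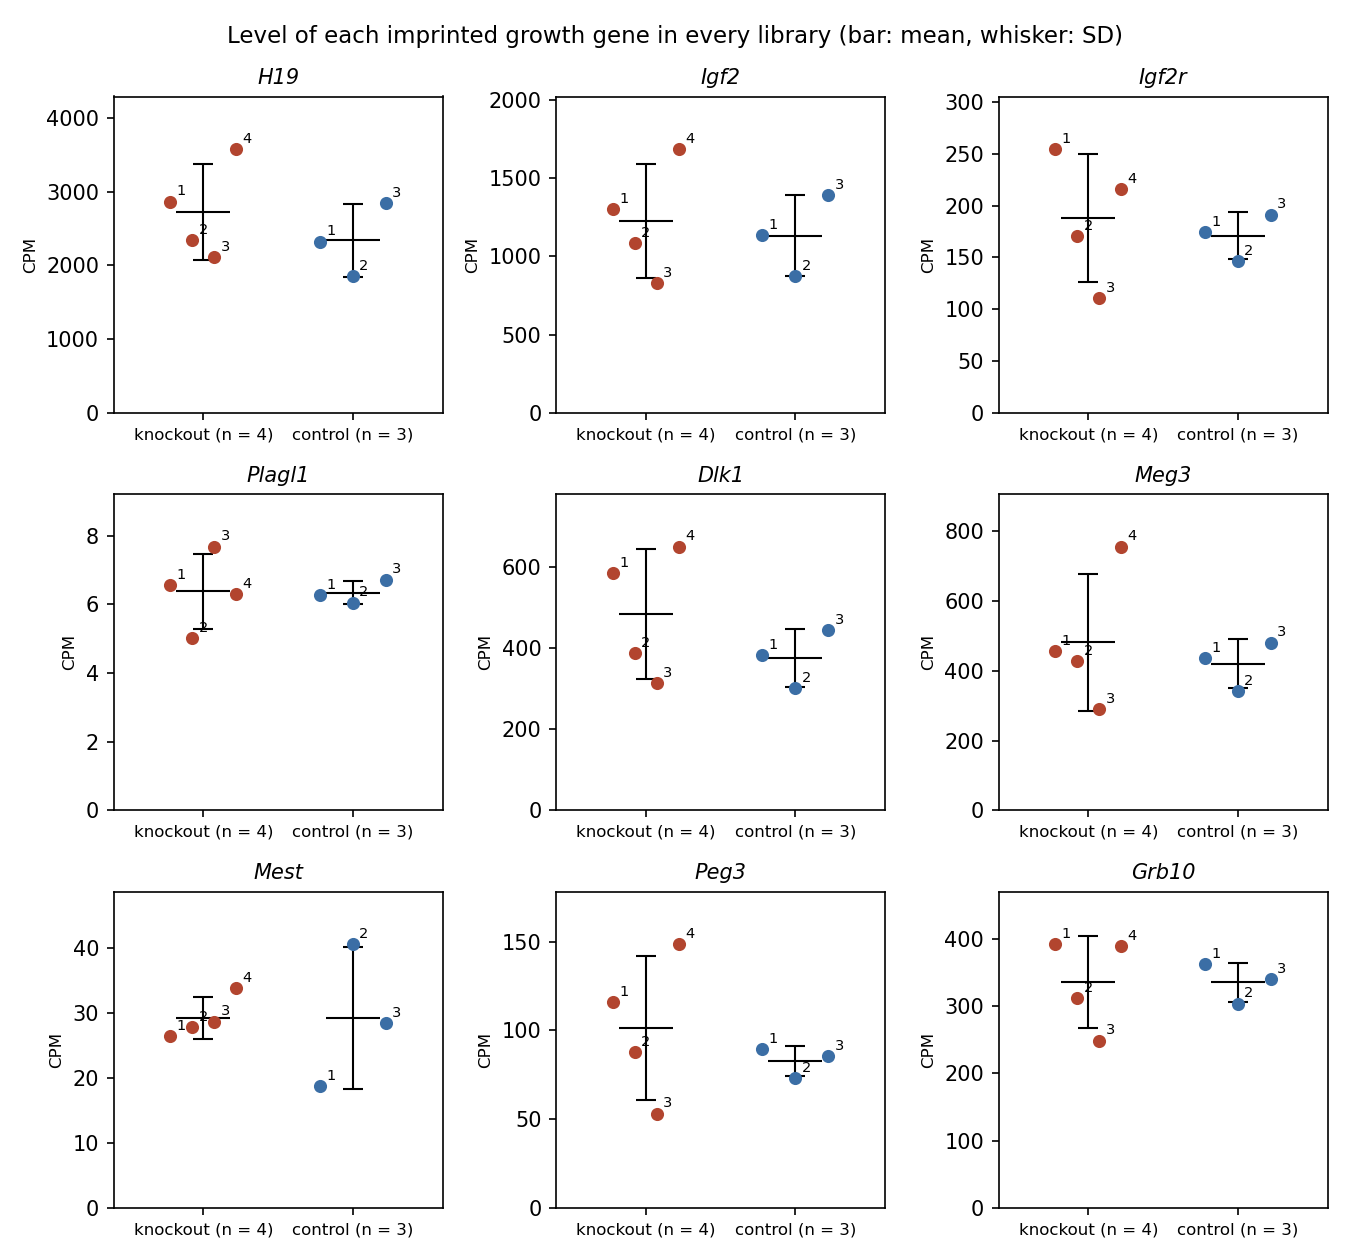
Each panel plots CPM of 1 gene on a linear axis from 0, with 1 point per library labelled by its replicate number (knockout left, control right), a bar at the mean and whiskers of 1 SD. The groups overlap in every panel, and knockout replicate 4 is the highest library for 5 of the 9 genes and knockout replicate 3 the lowest for 5.

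**Figure D2:**
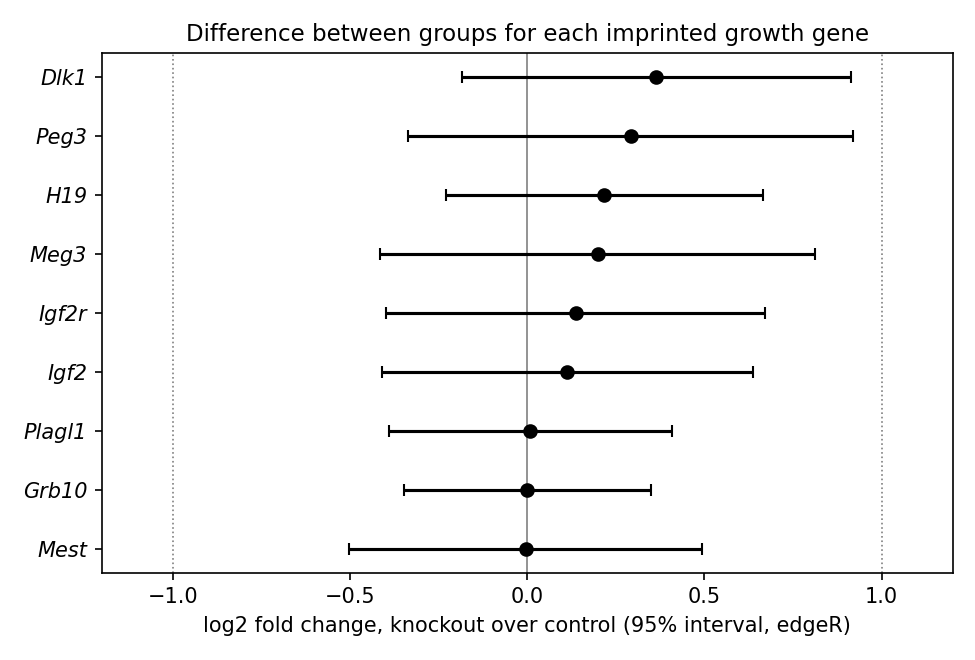
Points are log2 fold changes, knockout over control, from the edgeR fit, with 95% intervals, and dotted lines mark a 2-fold difference in either direction. Every interval contains 0, and the largest estimate is 0.36, for Dlk1.

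The members' levels were ordered per length, as the mean CPM over the 7 libraries per kilobase of the union of annotated exons (GENCODE M21). H19 was highest at 1041 ± 235 CPM per kilobase (SD, n = 7), ahead of Igf2 at 207 ± 53 and Dlk1 at 77.5 ± 23.6 CPM per kilobase. Grb10 followed at 36.9 ± 5.6, Meg3 at 25.2 ± 8.2 and Igf2r at 19.4 ± 5.0 CPM per kilobase. Mest had 7.40 ± 1.71, Peg3 7.002 ± 2.31 and Plagl1 0.814 ± 0.102 CPM per kilobase. The ranges over libraries of H19, Igf2, Dlk1 and Grb10 did not overlap in that order. Grb10 and Meg3 overlapped in range, as did Meg3 and Igf2r, and Mest was above Peg3 in only 4 of 7 libraries. With the longest annotated transcript as the length the order was the same, and the ranges of Dlk1 and Grb10 and those of Igf2r and Mest then overlapped. Which transcripts were present was not measured, so these lengths can be too long for a gene such as Meg3, whose exons add up to 18.089 kilobases.

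What varied between libraries was the level of 7 of the members together. Knockout replicate 4 was the highest library for 5 of 9 members and also for Alb, and knockout replicate 3 or control replicate 2 was the lowest for 7 of 9. Over the 7 libraries, the 21 pairs among H19, Igf2, Igf2r, Dlk1, Meg3, Peg3 and Grb10, grouped after their values were seen, had Pearson correlations of log2 CPM from 0.73 to 0.96, with a median of 0.90. With both genes centred on their group means the median was 0.92. Plagl1 and Mest correlated with those 7 at between -0.33 and 0.04. These are descriptions of 7 libraries, and the genes of a library share its depth and its mixture of cells.

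Alb, the main serum protein of hepatocytes, had 6851, 5560.0, 5128 and 8765 CPM in knockout replicates 1 to 4 and 5729, 3966 and 7388 CPM in control replicates 1 to 3. H19 followed this order closely, with a Pearson r of 0.98 over the 7 libraries (exact permutation over all 5040 pairings, two-sided, p = 8e-04) and a Spearman rho of 0.93 (exact permutation p = 0.0067). Without the 2 libraries farthest from the median of Alb, knockout replicate 4 and control replicate 2, r was 0.98. For Igf2 r was 0.94 (exact permutation p = 0.0030, rho 0.96 with p = 0.0028), and 0.93 without those 2 libraries.

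Dlk1, Meg3 and Peg3 also tracked Alb at an unadjusted p under 0.05. For Dlk1 r was 0.90 (exact permutation p = 0.0038, rho 0.93 with p = 0.0067, r 0.80 without the 2 libraries). For Meg3 r was 0.85 (exact permutation p = 0.0214, rho 0.96 with p = 0.0028, r 0.77 without them), and for Peg3 it was 0.75 (exact permutation p = 0.0494, rho 0.75 with p = 0.0663, r 0.65 without them). Without knockout replicate 4 the values were 0.74 for Meg3 (exact permutation p = 0.0958) and 0.56 for Peg3 (exact permutation p = 0.222).

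The remaining members did not pass even unadjusted by Pearson's r. Igf2r had r 0.70 (exact permutation p = 0.0774, rho 0.86 with p = 0.0238, r 0.78 without the 2 libraries), and Grb10 had r 0.67 (exact permutation p = 0.0988, rho 0.79 with p = 0.0480, r 0.70 without them). Plagl1 had r 0.11 (exact permutation p = 0.853, rho 0.29, r 0.04 without them) and Mest r -0.19 (exact permutation p = 0.711, rho -0.21, r 0.15 without them). Mest was the only member with a negative r, and it was 0.51 without control replicate 2.

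In all, 5 of 9 members correlated with Alb positively at an unadjusted p under 0.05, against 4.46% of the 14678 tested genes other than Alb (6.0% in either direction). Adjusted over all 14678 relations by Benjamini and Hochberg, no member passed: the smallest adjusted value was 0.291, for H19. The 5040 pairings limit how small p can be, so passing this adjustment would need many genes near that limit. The failure to pass therefore does not show that a relation is absent. With the genes and Alb centred on their group means, 5 of 9 members passed unadjusted, against 4.35% of genes (6.21% in either direction), with the differences between the groups removed (r 0.98 for H19, 0.95 for Igf2, 0.89 for Dlk1, 0.86 for Meg3 and 0.74 for Peg3). With the mean of the 22 hepatocyte markers in place of Alb, 6 of 9 passed unadjusted, against 4.86% of genes (6.45% in either direction), and r was 0.99 for H19 and 0.96 for Igf2.

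The slope of log2 CPM on that of Alb is 1 where a gene changes in proportion to it. It was 0.83 for H19, 0.91 for Igf2, 1.01 for Dlk1, 0.98 for Meg3 and 0.94 for Peg3. For Igf2r it was 0.72, and for Grb10 0.41. Leaving out single libraries gave between 0.75 and 0.94 for H19, 0.82 and 1.15 for Igf2, 0.92 and 1.22 for Dlk1, 0.66 and 1.37 for Meg3, 0.65 and 1.40 for Peg3, 0.55 and 1.02 for Igf2r, and 0.30 and 0.62 for Grb10. For Plagl1 and Mest the slopes were 0.05 and -0.17, and both changed sign without single libraries.

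**Figure D3:**
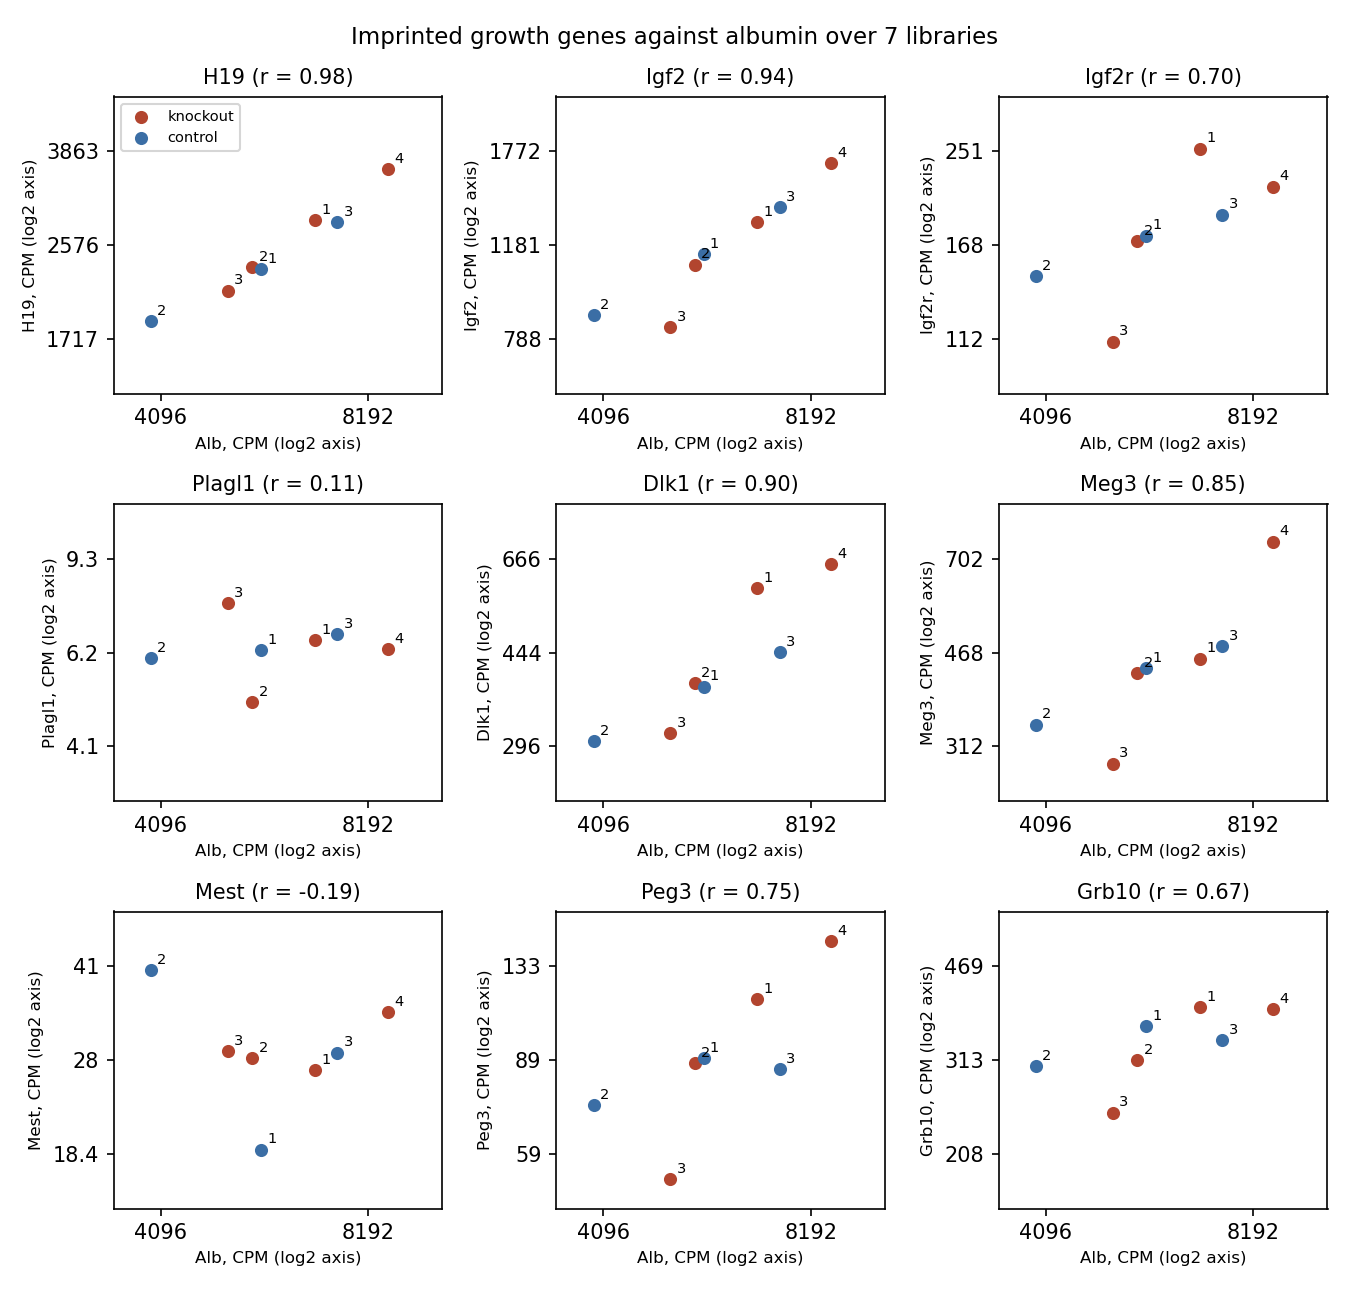
Each panel plots CPM of 1 gene against that of Alb on log2 axes, with 1 point per library (red knockout, blue control) labelled by its replicate number. H19 and Igf2 lie near a line through both groups (r 0.98 and 0.94), while Plagl1 and Mest show no such trend (r 0.11 and -0.19).

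With the log2 CPM of Alb as a term in the edgeR fit, no member was called either, and the log2 fold change was 0.03 for H19, -0.12 for Igf2, 0.11 for Dlk1, -0.09 for Meg3 and 0.01 for Peg3. Those 5 were 0.22, 0.11, 0.36, 0.20 and 0.29 without that term. They are the members that correlated with Alb unadjusted in these same libraries. A shift of their values with the term therefore followed from that choice and is no separate evidence. Igf2r, Mest and Grb10 turned sign with the term, with values given below. Alb itself had 6576 ± 1633 CPM in the knockouts and 5694 ± 1711 CPM in the controls, a log2 fold change of 0.21 (SE 0.23, edgeR adjusted p = 0.781). The hepatocyte list held 21 of 22 genes with a positive log2 fold change, a median of 0.23, and 0 called, beside 7685 positive genes of all 14679 tested and a median of 0.01. Of the 22, 0 passed edgeR at an unadjusted p under 0.05, against 10.9% of all tested genes. The groups overlapped for all 22, while 11.2% of all tested genes had no overlap. Genes of a library share its mixture of cells, so the 22 signs are not independent.

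Correlations were also computed with the means of 5 other marker lists, and no difference between 2 correlations was tested. Plagl1 correlated with the mean of 18 stromal and stellate markers, 14 of which passed the filter on low counts, with r 0.78 (exact permutation p = 0.0123, rho 0.79 with p = 0.0480), and with r 0.60 without the 2 libraries farthest from the median of that list; adjusted over all tested genes the value was 0.502. H19, Igf2 and Dlk1 correlated with the stromal mean at 0.03, -0.16 and 0.00. The stromal markers summed to between 106 and 209 CPM in the knockouts and between 95.4 and 148 CPM in the controls. Between 0 and 2 of the 18 had no read in a library. Their mean log2 CPM was highest in knockout replicates 3 and 1, at 1.28 and 1.13, and Plagl1 was highest in knockout replicate 3. Those 2 libraries also held reads of pancreas genes, given below, and the part of these in the correlation was not tested. Mest had its highest values with the endothelial and stem cell lists, r 0.70 for both (exact permutation p = 0.0885 and 0.0688). Without the 2 libraries farthest from the median of each list, r was 0.50 and 0.64. Control replicate 2 was the highest library for Mest and for the means of both lists. Of the 9 members, 1 (Plagl1, positive) passed unadjusted with the stromal list, against 3.18% of genes positive and 8.3% in either direction. With the stem cell list 1 passed (Plagl1, r -0.72, exact permutation p = 0.0484), against 6.68% positive and 12.1% in either direction. With the endothelial list 0 passed, against 9.02% of genes positive and 18.7% in either direction, with the erythroid list 0, against 5.15% and 9.45%, and with the myeloid list 0, against 7.88% and 12.2%.

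The values for several of these lists rested on the 2 libraries farthest from the list's median, which differ between lists. For the 7 members other than Plagl1 and Mest, r with the endothelial list ran from -0.30 to 0.06 over 7 libraries and from 0.70 to 0.88 over the 5 left. With the stem cell list it ran from -0.18 to 0.15 over 7 libraries and from 0.47 to 0.92 over 5. With the erythroid list it ran from -0.19 to 0.235 over 7 libraries and from -0.98 to -0.70 over 5, and with the myeloid list from -0.63 to -0.32 over 7 and from -0.34 to 0.03 over 5. With the stromal list it ran from -0.38 to 0.03 over 7 libraries and from -0.20 to 0.26 over 5. With the hepatocyte list r ran from 0.73 to 0.99 over 7 libraries and from 0.71 to 0.99 over 5, so high values over 5 libraries were not confined to the hepatocyte list.

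**Figure D4:**
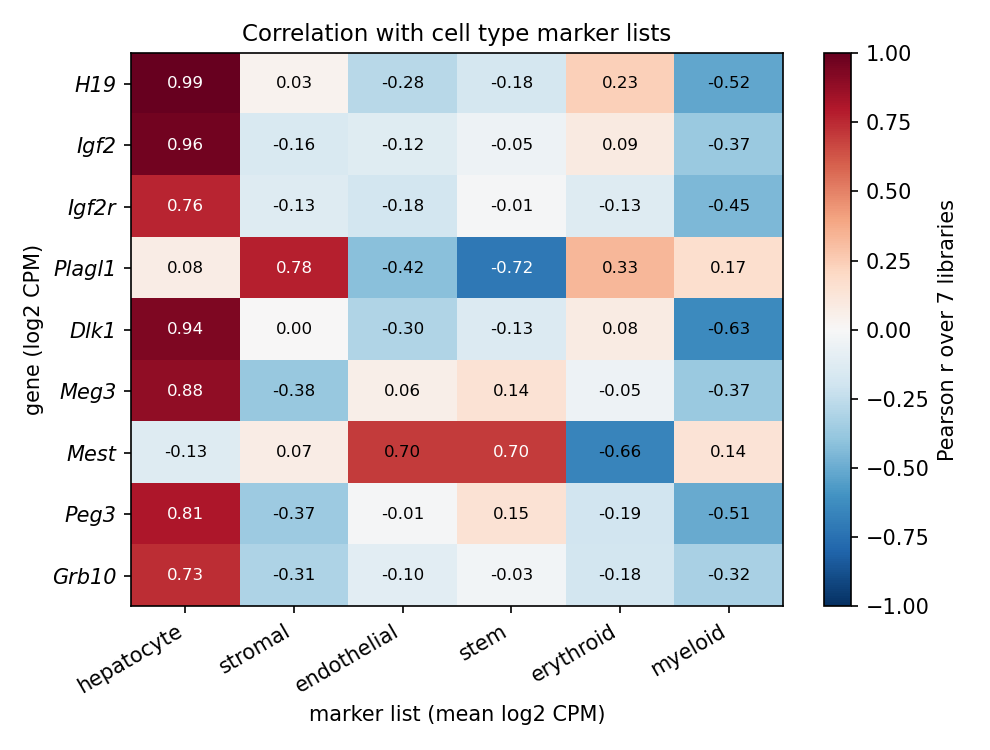
Cells give the Pearson r, over 7 libraries, of the log2 CPM of each gene (rows) with the mean log2 CPM of each marker list (columns), from -1 in blue to 1 in red. The hepatocyte column holds values of at least 0.73 for 7 genes, and Plagl1 and Mest have their highest values in other columns.

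The genes most like each member over the 7 libraries, by Pearson r of log2 CPM among all tested named genes, included liver genes for several members. They were Serpina1d, Fgg and Cbs for H19 (r 0.99 each) and F12, Vwa8 and Pla1a for Igf2 (r 0.995, 0.995 and 0.994). Serpina1d belongs to a family of near-identical genes, so its counts are uncertain, Fgg encodes a fibrinogen chain and F12 a coagulation factor made by the liver. Dlk1 had Igf2os, a transcript antisense to Igf2, as its nearest gene (r 0.996), then Nipsnap1 and Serpinf2, and Meg3 had Gcgr, the glucagon receptor of hepatocytes (r 0.996), then Pde6c and Arhgef19. Peg3 was nearest to Rbfox2, Prox1 and Mcc (r 0.996, 0.994 and 0.989), Igf2r to Pid1, Ptpn21 and Dsp, and Grb10 to Sox5, Evi5 and Lzts3. Plagl1 was nearest to Capn6, Col14a1 and Mag (r 0.97 each) and Mest to Spata1, Calcrl and Filip1 (r 0.98, 0.97 and 0.97). Each was picked for the highest r over only 7 libraries, so these lists are descriptions.

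Beyond the 9 members, 2 lists of other imprinted genes were examined, and Gatm, which makes the creatine precursor guanidinoacetate, was their only called gene. It had 17.2, 23.9, 25.5 and 18.1 CPM in knockout replicates 1 to 4 and 41.9, 45.2 and 55.3 CPM in control replicates 1 to 3. All knockouts lay below all controls, and Gatm fell with a log2 fold change of -1.16 (SE 0.16, 95% interval -1.52 to -0.80, edgeR adjusted p = 0.0137). The adjusted p was 0.0538 without knockout replicate 2, 0.0578 without knockout replicate 4 and 0.0875 without control replicate 3. With the Alb level as a term the log2 fold change was -1.14 (edgeR adjusted p = 0.0276). Imprinting of Gatm is known from mouse placenta, and the parental origin of its transcript was not measured here.

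Of 25 tested genes listed as maternally expressed, 1 fell, 0 rose and 24 did not pass. That stands beside 80 lower and 2 higher of all 14679 genes (0.559%). The median log2 fold change of the list was -0.02, and whether each gene is imprinted in these cells was not measured. The others of smallest p were Slc22a3, a cation transporter (44.5 ± 5.1 CPM in the knockouts and 29.6 ± 10.2 CPM in the controls, edgeR adjusted p = 0.320), Phactr2 (log2 fold change -0.49) and Trappc9 (-0.22). Without control replicate 2, Slc22a3 passed at an adjusted p of 0.0374. Of 20 tested genes listed as paternally expressed, 0 passed, with a median of 0.07 and 0 at an unadjusted p under 0.05. DESeq2 called 0 of these genes, whose imprinting in these cells was not measured either. Their smallest p values belonged to Gab1, a docking protein (log2 fold change 0.17), Zdbf2 (0.75), Smoc1 (0.39) and Inpp5f (0.12).

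In the IGF pathway list, 0 of 30 tested genes passed over all genes, against 0.559% of all tested genes, and 0 were called by DESeq2 (median log2 fold change 0.02). At an unadjusted p under 0.05, 2 were higher and 4 lower, beside 580 higher and 1013 lower of all 14679 genes (10.9%). Igfbp4, an IGF binding protein, had 178, 135, 139 and 171 CPM in knockout replicates 1 to 4 and 182, 253 and 211 CPM in control replicates 1 to 3 (edgeR adjusted p = 0.227). All 4 knockouts lay below all 3 controls. Igfbp4 was 1 of 6 genes without overlap among the 30 tested in this list, against 11.2% of all tested genes. Igf2bp3, which binds Igf2 mRNA, had 84.1 ± 6.6 CPM in the knockouts and 105 ± 13 CPM in the controls (edgeR adjusted p = 0.257), Igfbp7 had 2.77 ± 0.21 and 1.57 ± 0.30 CPM in knockouts and controls (edgeR adjusted p = 0.205), and Pik3r1, a regulatory subunit of PI3 kinase, 101 ± 11 and 123 ± 7 CPM (edgeR adjusted p = 0.287).

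Factors that read, set or keep imprints held 0 called genes of 22 tested, against 0.559% of all tested genes, 0 called by DESeq2 and a median log2 fold change of -0.04. At an unadjusted p under 0.05, 3 were lower and 0 higher, against 10.9% of all tested genes. Dnmt3a, a de novo DNA methyltransferase, had 101 ± 21 CPM in the knockouts and 142 ± 30 CPM in the controls (edgeR adjusted p = 0.361), and Dnmt1, the maintenance methyltransferase, 551 ± 72 and 632 ± 11 CPM in knockouts and controls (edgeR adjusted p = 0.585). Tet2, a methylcytosine dioxygenase, had 26.1 ± 7.1 CPM in the knockouts and 38.0 ± 8.0 CPM in the controls, and Arid4a 54.8 ± 3.7 CPM and 64.7 ± 5.0 CPM (edgeR adjusted p = 0.399 and 0.359). DNA methylation itself was not measured in these libraries.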

How the data were processed

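RNA of lineage-negative fetal liver cells was sequenced as polyA libraries with a stranded kit, per the labels' protocols. The submitters' processing notes name HISAT2, featureCounts, DESeq2 and the build mm10; the sources used here give no versions, annotation, strand or multi-mapping settings. The deposited counts are raw whole numbers per gene symbol for 7 libraries. The authors' deposited comparison table from DESeq2 holds a log2 fold change, its standard error and a test score, p-values and adjusted p-values, and a signal, the count divided by 1 size factor per library (between 0.855 and 1.14); no value from it is used in the results. In the count table, 14 septin symbols stood as dates and were restored.

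Genes were filtered with filterByExpr, scaled by TMM and tested with edgeR 4.0.16 (quasi-likelihood F test, R 4.3.3), the design holding the group alone; SEs are the log2 fold change over the root of F. Log2 CPM used a prior count of 2. On simulated counts the test recovered planted changes. Correlations over the 7 libraries were tested over all 5040 pairings of libraries. Those centred on group means were tested over the 144 pairings within groups, and those without a library over all pairings of the libraries left. Alternatives were other scaling and filters, DESeq2 1.42.0, limma-voom 3.58.1, a replicate block, the Alb or hepatocyte level as a term and leaving out each library. Libraries of a group differed beyond counting noise (chi-square per degree of freedom from 9.16 to 46.3). The members and lists were chosen with earlier results of these data known. Besides Brd9 and the members, the genes named are the 4 with the smallest p of each pathway list and the 3 genes most like each member. Outside that rule, Alb was set by the question, Mir675, Mir483, Airn, Copg2 and Rian are named as genes within, overlapping or near members, and the pancreas genes were chosen after their values were seen. Of the listed genes, Zfp264 had no row. Positions and promoter and miRNA sequences come from RefSeq GRCm38.p6, the assembly mm10 names.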

Additional observations from a re-analysis of the deposited data

How the results depend on the processing

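No alternative called any of the 9 members. Without a low-count filter 228 genes were called, with DESeq2 386, and without single libraries between 20 and 120. Members correlated with Alb numbered between 3 and 5 without single libraries. The H19 to Igf2 and Meg3 to Dlk1 differences kept their sign in every setting run, with 0.0591 to 0.1477 and -0.2751 to -0.0825 without single libraries. Log2 fold changes of uncalled members turned sign in several settings, and the cause was not tested. With total counts they were -0.00674 for Plagl1 and -0.01023 for Grb10, with no filter -0.006131 for Grb10, with a mean of at least 1 CPM -0.0003875 for Grb10, and with limma-voom -0.007888 for Plagl1, 0.05028 for Mest and -0.0193 for Grb10. With the Alb level as a term they were -0.1186 for Igf2, -0.05386 for Igf2r, -0.09251 for Meg3, 0.06604 for Mest and -0.1189 for Grb10, and with the hepatocyte list level -0.09992, -0.05659, -0.07534, 0.04211 and -0.1171 for the same genes. Without single libraries the ranges were -0.07921 to 0.2875 for Igf2, -0.0518 to 0.3235 for Igf2r, -0.0927 to 0.1096 for Plagl1, -0.1037 to 0.3776 for Meg3, -0.2398 to 0.3061 for Mest and -0.08884 to 0.1205 for Grb10, and correlations with Alb ran from -0.0036 to 0.4027 for Plagl1 and from -0.5363 to 0.5059 for Mest. Nothing in the labels says that libraries of the same number pair, and whether they do was not settled. Deviations of same-numbered libraries correlated at 0.17, -0.0219 and -0.00523. The replicate block, in which knockout replicate 4 has no partner, gave 121 changed genes, log2 fold changes of -0.07508 for Igf2, -0.00426 for Igf2r, -0.002142 for Plagl1, -0.115 for Meg3, -0.01111 for Peg3 and -0.09805 for Grb10, and calls of Dnmt3a (edgeR adjusted p = 0.0334) and Tet2 (edgeR adjusted p = 0.0414). With 4 knockouts and 3 controls the smallest exact permutation p is 0.0286.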

Other observations

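Ins2, the neighbour of Igf2 on chromosome 7, and other genes of pancreatic islet and acinar cells had most of their reads in 2 knockout libraries, a pattern chosen after its values were seen. Ins2 had 46 reads in knockout replicate 1 and 105 in knockout replicate 3, 0 in the other knockouts, and 0, 7 and 0 in control replicates 1 to 3. Gcg, the glucagon gene, had 39 and 71 reads in knockout replicates 1 and 3 and 0 in every other library. Ctrb1, a chymotrypsinogen, had 231 and 79 reads in knockout replicates 1 and 3 and 0 in every other library. Cpa1 was less confined, with 50, 0, 32 and 6 reads in knockout replicates 1 to 4. In control replicates 1 to 3 Cpa1 had 3, 3 and 0 reads. Knockout replicate 1 was the highest library for Igf2r and Grb10. Knockout replicate 3 was the lowest for Igf2, Igf2r, Meg3, Peg3 and Grb10 and the highest for Plagl1. The part of these reads in the members' levels was not tested.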
